A study of Mus musculus with 7 samples.

Results

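The miR-101 family was examined in miRNA arrays of p53-null mouse soft tissue sarcoma cells. The members were taken by name as mmu-miR-101a and mmu-miR-101b (miR-101a and miR-101b below), which are 2 of the 252 mouse miRNAs in the deposited expression table, together with the only other form of either that the array carries, the star arm miR-101a-5p. The pair was picked with the results of these same arrays in view, so their levels and differences are given as a description without p-values. Cells of 3 groups were measured. Control primary cells (n = 2) carried a Non-target shRNA, Rb-depleted primary cells (n = 2) carried the shRNA shRb1 against Rb, and Rb-depleted secondary cells (n = 3) carried shRb1 and had been recovered from spheres and returned to 2D culture. All groups lacked p53 and came from sarcomas of p53 knockout mice, and every transduced culture was kept under puromycin selection. Secondary cells carrying the Non-target shRNA are not analysed here, so that passage through sphere culture and the loss of Rb cannot be told apart between secondary and control cells. A single shRNA against Rb was used.

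A miRNA is a short RNA that guides Argonaute proteins to messenger RNAs, mostly through pairing of its seed, bases 2 to 8 from its 5′ end, with the 3′ untranslated region (UTR). The miR-101 family is known for lowering EZH2, the catalytic subunit of Polycomb repressive complex PRC2, which methylates histone H3 and silences genes, and loss of miR-101 has been described in tumors in which EZH2 is high. The gene for EZH2 is in turn a target of E2F factors, which the Rb protein holds in check. The arrays measured only miRNAs, so neither Ezh2 nor Rb was read in these samples.

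The mature sequences show why the pair is treated as a family. They are printed 5′ to 3′ as RefSeq gives them (GRCm38.p6), with the seed in capitals.
miR-101a-3p: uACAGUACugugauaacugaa
miR-101b-3p: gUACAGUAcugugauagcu
miR-144-3p: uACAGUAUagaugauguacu
miR-101a-5p: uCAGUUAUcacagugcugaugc
The RefSeq form of miR-101b-3p starts 1 base earlier than miR-101a-3p, so the 7 letters of the miR-101a seed lie in miR-101b from its base 3 on. Over the 18 bases that both share, 17 were identical (94.4%). The single substitution is A16G, counted from the 5′ end of miR-101a-3p, with the base of miR-101a first. Past this stretch miR-101a-3p runs on for 3 bases. Among 1679 mature mouse miRNAs of the RefSeq table, 3 held the 6 letters ACAGUA within bases 2 to 8, namely miR-101a-3p, miR-101b-3p and miR-144-3p, the last a miRNA best known from red blood cell precursors. RefSeq also lists miR-101c, whose 19 bases are those of miR-101a-3p from base 2 on, and the array carries no form under that name. In all, 4 of the 1679 held the 7 letters of the miR-101a seed anywhere in their sequence. Since these miRNAs differ at so few bases, a probe for one member may also take up the other member or miR-101c, which was not tested.

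The 2 members come from separate loci. Mir101a (ENSMUSG00000065451.1) is annotated on the minus strand of chromosome 4 from 101019550 to 101019632 of NCBIM37, the build that the scanner file headers name as mm9. It lies in exon 2 of 2 of the noncoding transcript E130102H24Rik on the same strand, and the nearest coding genes are Ak4 at 72250 bases and Jak1 at 81663 bases. Mir101b (ENSMUSG00000065556.1) is annotated on chromosome 19, plus strand, from 29209769 to 29209865, in intron 8 of the 9-exon transcript of Rcl1, a gene for a protein of ribosomal RNA processing, on the same strand. The hairpins are shown because they hold both arms, of which the 3p arm was detected at both loci, the 5p arm of Mir101a was not detected, and the 5p arm of Mir101b has no probe on the array. The mature arms are in capitals.
Mir101a: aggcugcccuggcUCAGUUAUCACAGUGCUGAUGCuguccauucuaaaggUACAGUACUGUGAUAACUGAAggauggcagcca
Mir101b: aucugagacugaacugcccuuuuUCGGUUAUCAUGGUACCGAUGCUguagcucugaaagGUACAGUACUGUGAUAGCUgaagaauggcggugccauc

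The 3′ UTR of Ezh2 holds the match to the miR-101a seed, GTACTGT on the transcript strand, at positions 59 and 114 of the 267 bases annotated for transcript Ezh2-001. The sites are shown with the seed match in capitals.
Ezh2 chr6:47480474-47480497, minus strand: gcttcaggaaccttgaGTACTGTg
Ezh2 chr6:47480419-47480442, minus strand: attctgaatttgcaaaGTACTGTa
The second of them also holds TACTGTA, the match to the seed of miR-101b in the register that RefSeq gives, which overlaps the first match by 6 bases. Of 20007 genes with an annotated 3′ UTR (longest transcript of each), 1687 (8.43%) held GTACTGT at least once and 183 (0.915%) held it 2 or more times, and 2175 (10.9%) held TACTGTA. Among 776 genes whose 3′ UTR is within 10% of the length of that of Ezh2, 19 (2.45%) held GTACTGT and 2 (0.258%) held it 2 or more times, Ezh2 included. Among the other core genes of PRC2, Eed held GTACTGT once and Rbbp7 once, and Suz12 and Rbbp4 did not hold it. A match is a description of letters, and binding was not measured.

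The arrays were 1-colour Agilent arrays, each hybridized with 100 ng of total RNA of an RNA integrity number of 10. Of 696 mouse miRNAs on the array, 258 to 287 were detected per array by the scanner software. The deposited values are log2 values after quantile normalization, which gives every array the same distribution of values, and the 252 miRNAs were detected on all 7 arrays. The scanner files give the total gene signal, the summed background-corrected brightness of a miRNA's probes before any normalization between arrays. Without normalization the median of the 252 miRNAs differed by -0.26 on the log2 scale between Rb-depleted primary and control primary cells, by -0.46 between secondary and control cells and by -0.18 between secondary and Rb-depleted primary cells, and normalized differences are relative to these shifts. Slide 1 held the 4 primary arrays and secondary replicate 1, and slide 2 held secondary replicates 2 and 3. Of the miRNAs known to mark mesenchymal cells, 5 of 5 were detected on all arrays. Of 6 epithelial markers 0 were detected on any array. Of 4 haematopoietic markers 3 were detected on 0 arrays and miR-451a on 1, and of 2 endothelial markers miR-126-3p was detected on the 4 primary arrays only, at 10.7 or less.

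On the deposited scale miR-101a was highest in Rb-depleted secondary cells, about 2-fold over both kinds of primary cells, and it overlapped between the 2 kinds of primary cells. Without normalization it was 1.33-fold higher in secondary than in control cells, and the arrays of these groups overlapped. Control primary cells had deposited log2 values of 5.91 and 6.09, and those of Rb-depleted primary cells were 5.78 and 6.00. The secondary arrays had 7.10, 6.62 and 7.08. The 3 secondary arrays lay above all 4 primary arrays, while the control and Rb-depleted primary arrays overlapped. The groups averaged 6.00 ± 0.13 (SD, n = 2), 5.89 ± 0.15 (SD, n = 2) and 6.93 ± 0.27 (SD, n = 3). In the fit over all 252 miRNAs the log2 difference between secondary and control cells was 0.94 (standard error 0.18, 1.92-fold), and between secondary and Rb-depleted primary cells it was 1.04 (standard error 0.18, 2.06-fold). The log2 difference between Rb-depleted primary and control cells was -0.11 with a standard error of 0.20, smaller than its error. In total RNA of a culture, more of a miRNA per cell and more cells that carry it cannot be told apart.

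miR-101b followed the same order of groups, with smaller steps up to the secondary cells. The control arrays had deposited log2 values of 7.39 and 7.42, the Rb-depleted primary arrays had 7.21 and 7.29, and the secondary arrays had 7.81, 7.51 and 7.81. No array of 1 group fell within the range of another group. Secondary replicates 1 and 3 carry the same number because quantile normalization gave both the same rank, and their scanner signals differed. The means were 7.40 ± 0.021 (SD, n = 2), 7.25 ± 0.055 (SD, n = 2) and 7.71 ± 0.17 (SD, n = 3). The log2 difference was 0.31 between secondary and control cells (standard error 0.12, 1.24-fold) and 0.46 between secondary and Rb-depleted primary cells (standard error 0.12, 1.37-fold). Between Rb-depleted primary and control cells it was -0.15 with a standard error of 0.13. In both members, secondary replicate 2 was the lowest secondary array.

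Groups that do not overlap were common on these arrays, and the members were chosen from them, so nothing is read from their count. On the deposited scale, 2 of the 2 members had secondary arrays all above the control arrays, where 29.8% of the 252 miRNAs did, and 2 of 2 had secondary arrays all above the Rb-depleted primary arrays, where 27.0% did. Rb-depleted primary arrays all below the control arrays were found in 1 of 2 members, miR-101b, and in 26.6% of all miRNAs. Ordered from the most positive to the most negative among the 252 miRNAs, the difference of miR-101a was in place 17 between secondary and control cells and in place 14 between secondary and Rb-depleted primary cells, and that of miR-101b was in places 63 and 41. Between Rb-depleted primary and control cells they were in places 164 and 172. The comparisons with secondary cells share the secondary arrays, and those with primary cells share either the control or the Rb-depleted primary arrays.

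**Figure D1:**
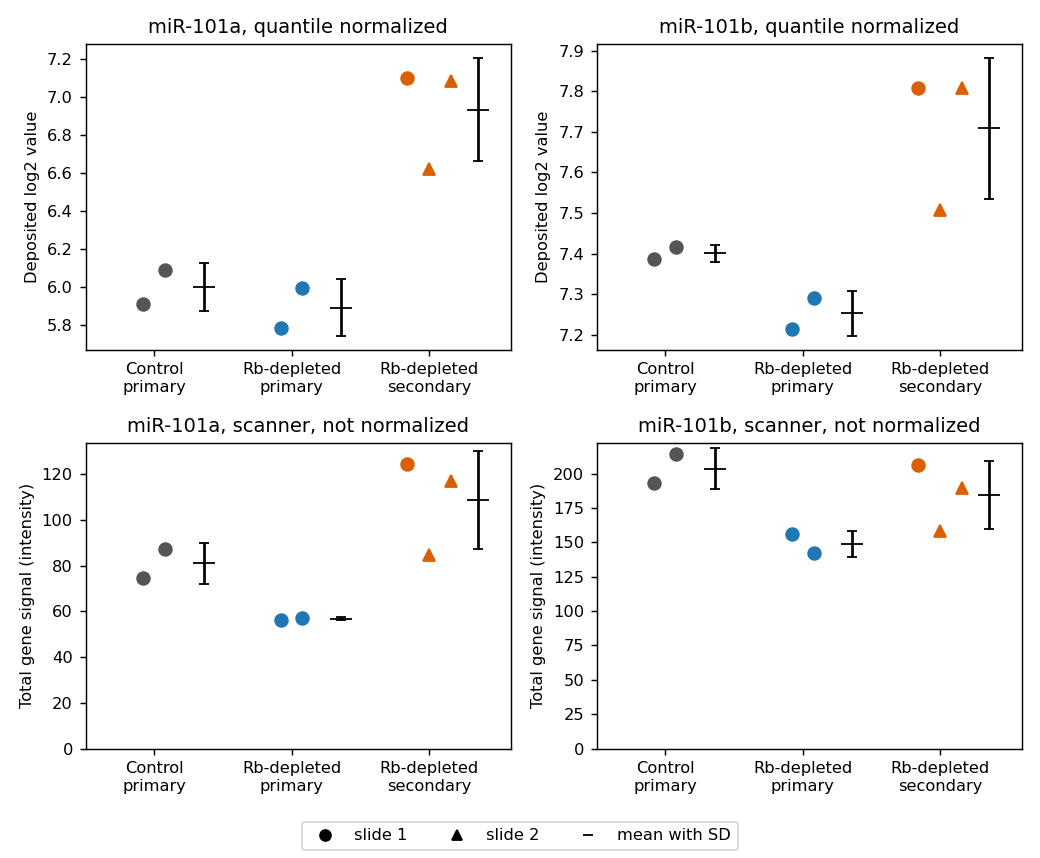
Values of miR-101a (left) and miR-101b (right) on each array, as deposited log2 values (top) and as the scanner's total gene signal in intensity units (bottom), by group. Circles are arrays on slide 1, triangles are arrays on slide 2, and bars are the group mean with SD (n = 2, 2 and 3). On the top panels the 3 secondary arrays lie above all primary arrays, and on the bottom panels miR-101b of secondary cells, 157.9 to 206, overlaps control cells, 193 to 214.

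Before normalization the order of secondary and control cells was less clear. The total gene signal of miR-101a was 74.7 and 87.2 on control arrays, 56.2 and 57.1 on the Rb-depleted primary arrays, and 124.5, 84.5 and 117.0 on the secondary arrays. Secondary replicate 2 lay within the range of the control arrays, and both Rb-depleted primary arrays lay below all others. That of miR-101b was 193 and 214 on control arrays, 155.7 and 142 on the Rb-depleted primary arrays, and 206, 157.9 and 189.6 on the secondary arrays. Here the Rb-depleted primary arrays were again the lowest, and the secondary arrays overlapped the control arrays. Both members thus had Rb-depleted primary arrays all below control arrays on the scanner scale, as had 57.9% of the 252 miRNAs, and secondary arrays all above Rb-depleted primary arrays, as had 12.3%.

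The unnormalized log2 differences of miR-101a were -0.51 between Rb-depleted primary and control cells, 0.41 between secondary and control cells and 0.92 between secondary and Rb-depleted primary cells. Relative to the median of all 252 miRNAs these were -0.25, 0.87 and 1.10. For miR-101b they were -0.45, -0.15 and 0.30, or -0.19, 0.31 and 0.48 relative to the median. The higher level of miR-101b in secondary than in control cells was therefore found only relative to the other miRNAs on the array, and its direction turned without normalization. The step up of both members between Rb-depleted primary and secondary arrays kept its direction on both scales. Summed over those miRNAs, the total gene signal was 538586 and 550498 on control arrays, 432616 and 501515 on the Rb-depleted primary arrays, and 444678 to 471686 on the secondary arrays.

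**Figure D2:**
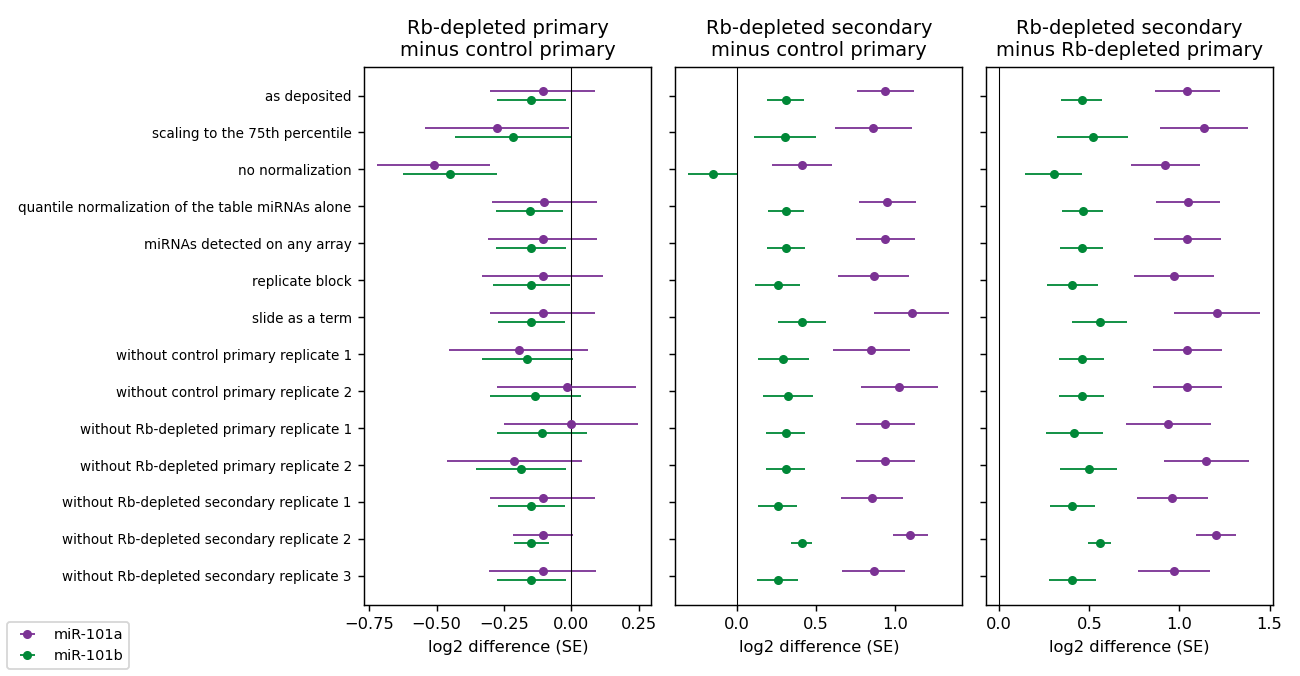
Log2 differences of miR-101a (purple) and miR-101b (green) in the 3 comparisons under each way of processing, with the standard error of the fit as bars. The difference between secondary and Rb-depleted primary cells stays above 0 in each row for both members, from 0.92 to 1.21 for miR-101a and from 0.30 to 0.56 for miR-101b, while that of miR-101b between secondary and control cells is -0.15 without normalization.

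The secondary arrays were spread over both slides. On slide 1, which held every primary array, the single secondary array had a deposited log2 value of 7.10 for miR-101a and 7.81 for miR-101b, above the 4 primary arrays in both. On slide 2 the secondary arrays had 6.62 and 7.08 for miR-101a and 7.51 and 7.81 for miR-101b. On the scanner scale the secondary array of slide 1 was the highest of the 3 for both members. With slide as a term in the fit, which leaves the comparison of groups to slide 1, the log2 difference between secondary and Rb-depleted primary cells was 1.21 for miR-101a and 0.56 for miR-101b. Slide 1 held a single secondary array, too few to give a spread within it, and the part of the slide in the spread of the secondary arrays was not tested.

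Each member was read by 2 probes, each printed in 10 spots per array, and the probes of a member moved alike. The first probe of miR-101a had a signal of 33.0 and 36.4 on control arrays, 23.6 and 24.7 on the Rb-depleted primary arrays, and 57.3, 36.7 and 51.4 on the secondary arrays. Its second probe had 41.7 and 50.7, then 32.6 and 32.4, then 67.3, 47.8 and 65.6. The unnormalized log2 differences between secondary and Rb-depleted primary cells were 0.98 and 0.87 for these probes. The probes of miR-101b differed by 0.26 and 0.32 in that comparison, and the secondary arrays overlapped the Rb-depleted primary arrays for the first of them (44.1 to 56.7 against 39.8 to 46.5) and not for the second (113.8 to 149.8 against 102.6 to 109.2). All 4 probes were lower in Rb-depleted primary than in control cells, with log2 differences of -0.44 to -0.52 and no overlap of the arrays. Probe signals are not normalized. On the scanner scale the median of the 252 miRNAs differed by -0.26 in that comparison, and 57.9% of them had Rb-depleted primary arrays all below control arrays. Across the spots of a probe on an array, the coefficient of variation was 6.96% to 17.8% for miR-101a and 3.31% to 22.1% for miR-101b. Spots flagged as outliers by the scanner software were left out of it, 10 of 140 for miR-101a and 6 of 140 for miR-101b. Of all 140 spots of either member, 0 were saturated. The error that the scanner software states for the total gene signal was 7.61% to 9.60% of the signal for miR-101a and 7.87% to 8.11% for miR-101b.

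The gap between the 2 members was smaller in secondary cells, with miR-101a closer to miR-101b. In the difference within each array a single scale factor per array cancels. Quantile normalization acts by rank and does not cancel, so the scanner ratio is given as well. The deposited log2 value of miR-101a minus that of miR-101b was -1.48 and -1.33 on control arrays, -1.43 and -1.30 on the Rb-depleted primary arrays, and -0.71, -0.89 and -0.73 on the secondary arrays. The secondary arrays stood apart from the 4 primary arrays, which overlapped among themselves. The means were -1.40 ± 0.11 (SD, n = 2), -1.36 ± 0.094 (SD, n = 2) and -0.78 ± 0.099 (SD, n = 3). On the scanner scale the ratio of miR-101a to miR-101b signal was 0.386 and 0.407 on control arrays, 0.361 and 0.401 on the Rb-depleted primary arrays, and 0.603, 0.535 and 0.617 on the secondary arrays. The within-array difference was 0.63 higher in secondary than in control cells and 0.59 higher than in Rb-depleted primary cells. These steps follow from the differences of the 2 members given above and are not a further finding. The share of other miRNA pairs that separate the same groups was not counted. Probes differ in how strongly they bind, so the ratio compares arrays and says nothing of which of the miRNAs was the more abundant.

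**Figure D3:**
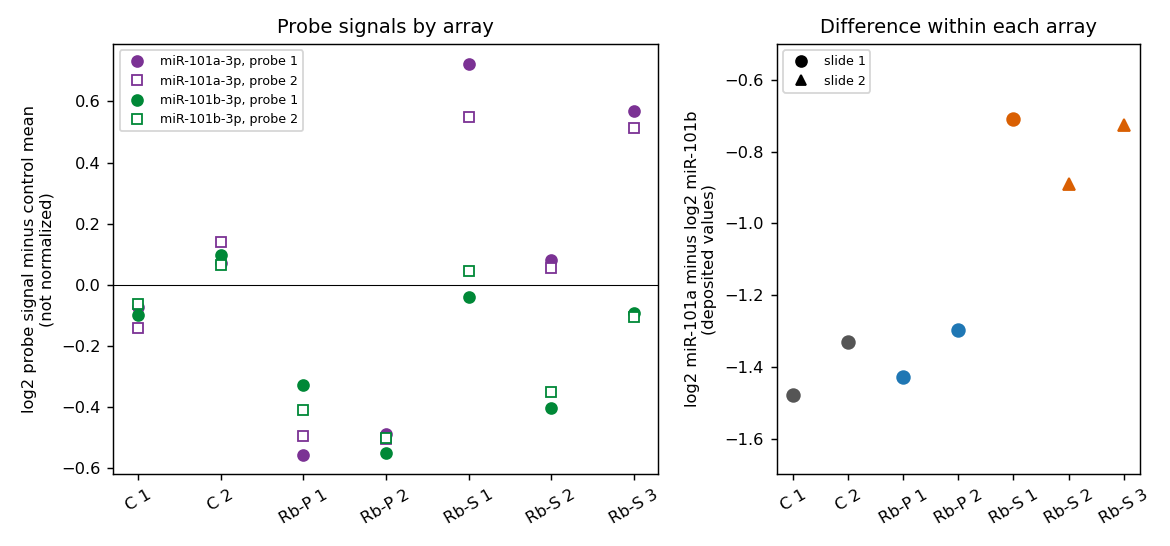
Left, log2 signal of each probe minus its mean over the control arrays, not normalized, for the control primary (C), Rb-depleted primary (Rb-P) and Rb-depleted secondary (Rb-S) arrays, with purple for miR-101a-3p and green for miR-101b-3p and a filled or open symbol for its first and second probe. Right, the deposited log2 value of miR-101a minus that of miR-101b on each array (circles slide 1, triangles slide 2), which is -1.48 to -1.30 on the primary arrays and -0.89 to -0.71 on the secondary arrays.

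Both members were well above the lowest signals that were called detected, 3.38 to 5.37 depending on the array. By signal, miR-101a stood between places 158 and 172 of the 252 miRNAs on the primary arrays and at places 119, 139 and 119 on the secondary arrays. miR-101b stood between places 110 and 115 on the primary arrays and at 98, 107 and 98 on the secondary arrays. The star arm miR-101a-5p was detected on 0 of 7 arrays. All 28 of its probe values, 4 probes on 7 arrays, were below 0 after background subtraction. miR-144-3p, which shares most of the miR-101 seed, was likewise detected on 0 of 7 arrays, with all 14 probe values below 0. The 3p arms alone are in the deposited table.

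None of the other miRNAs in the table that have been described as repressors of EZH2 passed the test in any comparison. The list held 16 miRNAs, namely the let-7 family (let-7a to let-7g and let-7i), miR-98, miR-26a, miR-26b, miR-124, miR-137, miR-138, miR-214 and miR-217, and 12 of them were in the table. With limma and Benjamini-Hochberg adjustment over all 252 miRNAs, 0 of 12 had an adjusted p under 0.05 in any of the 3 comparisons, where 1.59%, 22.6% and 20.2% of all miRNAs did (Rb-depleted primary against control, secondary against control, and secondary against Rb-depleted primary cells). The shares over all miRNAs changed with the arrays used. Leaving out 1 of the 3 secondary arrays gave 0 to 12, 16 to 74 and 17 to 66 calls in place of 4, 57 and 51, in that order of comparisons. Leaving out a primary array changed them too, but leaves its group with a single array. At an unadjusted p under 0.05 the counts were 0, 3 and 1 of 12, where 25.4%, 36.5% and 40.5% of all miRNAs passed. Between secondary and control cells all 12 had a difference above 0, from 0.03 to 0.40 on the log2 scale, with a median of 0.14 beside 0.03 for all miRNAs. Without normalization 0 of 12 did, with a median of -0.19 beside -0.46 for all miRNAs. Between secondary and Rb-depleted primary cells 9 of 12 had a difference above 0 with a median of 0.07, beside 0.02 for all miRNAs. The shares of all miRNAs with a difference above 0 were not counted, so nothing is read from these counts. The p-values measure the spread between these arrays, which the series text calls independent experiments.

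The 3 miRNAs with an unadjusted p under 0.05 in secondary against control cells, named after their values were seen, were let-7a, let-7f and let-7g, members of a family that restrains growth-promoting genes such as Ras and Hmga2. By limma with Benjamini-Hochberg adjustment, let-7g differed by 0.31 (standard error 0.094, adjusted p = 0.0659), let-7a by 0.38 (standard error 0.12, adjusted p = 0.0782) and let-7f by 0.40 (standard error 0.14, adjusted p = 0.104). These let-7 members differ by few bases, and cross-binding of their probes was not tested. The other miRNAs of the list given with values were also named after these were seen. miR-26a and miR-26b, which share a seed with each other, differed by 0.099 and 0.059 in that comparison with standard errors of 0.080 and 0.14. miR-214, from a hairpin expressed in mesenchymal cells, differed by 0.17 with a standard error of 0.13.

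**Figure D4:**
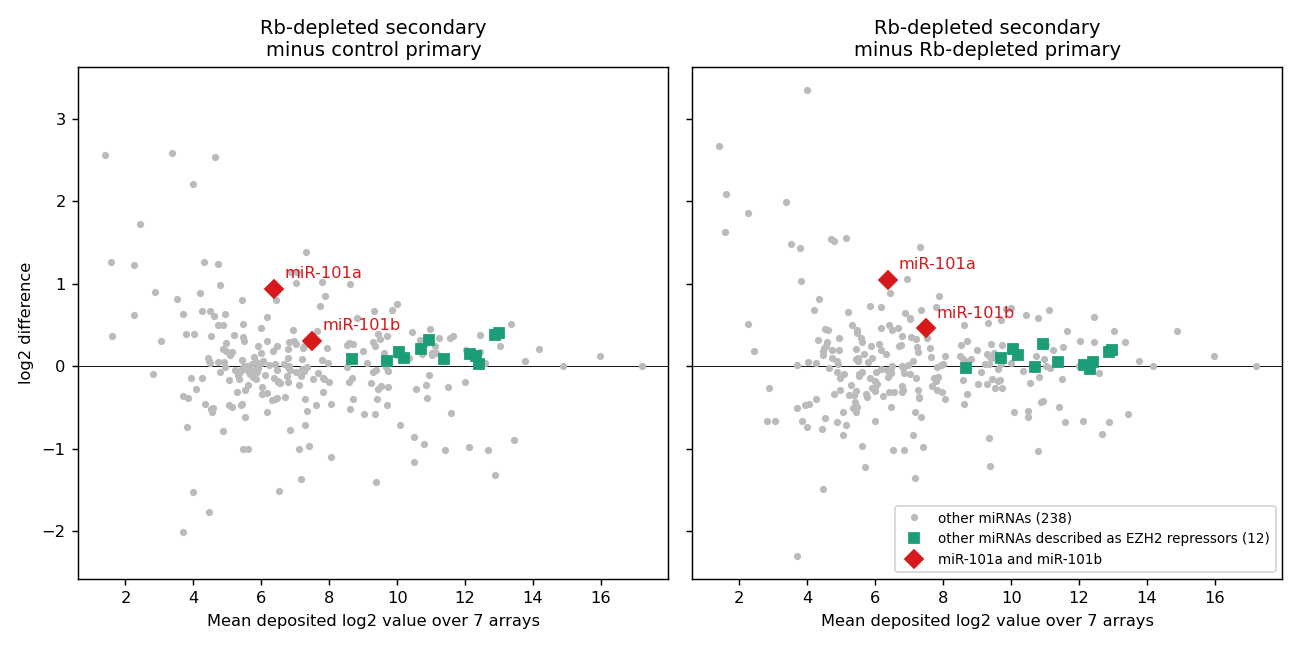
Log2 difference of each of the 252 miRNAs in the deposited table between secondary and control primary cells (left) and between secondary and Rb-depleted primary cells (right), against its mean deposited log2 value over 7 arrays. miR-101a and miR-101b (red) lie at 0.94 and 0.31 on the left and at 1.04 and 0.46 on the right, and the 12 other miRNAs described as EZH2 repressors (green) lie between 0.03 and 0.40 on the left and between -0.03 and 0.26 on the right.

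Of the 4 miRNAs of the list outside the table, miR-124, miR-137 and miR-217, which are best known from neurons and the pancreas, were detected on 0 of 7 arrays. miR-138-5p was detected on the 4 primary arrays and on 0 of the 3 secondary arrays. Its total gene signal was 21.6 and 19.0 on the control arrays and 10.7 and 7.67 on the Rb-depleted primary arrays, and on the secondary arrays it was listed at 0.1, the value given to undetected miRNAs. Since it was detected only in primary cells, no fold against secondary cells is given and nothing is read from a test of it.

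The miRNAs whose deposited values were most like those of miR-101a over the 7 arrays were miR-214* (Pearson r 0.981), miR-15a (0.975), miR-148a (0.962), miR-196a (0.959) and miR-574-3p (0.953). miR-101b itself had an r of 0.969 with miR-101a, place 3 among the other 251 miRNAs. Those most like miR-101b were miR-196a (0.987), miR-199a-3p (0.957), miR-143 (0.955), miR-15a (0.948) and miR-22 (0.945). These 7 points share the step from primary to secondary cells and the 2 slides, and the correlations are a description. The steps between secondary and Rb-depleted primary cells ranged from 0.29 on the log2 scale for miR-22 to 3.35 for miR-196a, a miRNA encoded within the Hox clusters, against 1.04 for miR-101a. miR-15a, known for repressing Bcl2, was on both lists and differed by 0.71 in that comparison. miR-143 and miR-199a-3p, known from smooth muscle and other mesenchymal cells, differed by 0.62 and 0.60.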

How the data were processed

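Total RNA of 7 cultures was labelled with Cy3 and hybridized to Agilent mouse miRNA arrays. The authors deposited log2 values that they had quantile normalized with GeneSpring, for 252 mouse miRNAs and 11 control rows, which were left out, and they deposited the intensity of each spot, probe and miRNA from the scanner output. The submitters' processing notes name Feature Extraction 10.7.3.1 and the file headers 11.0.1.1. Quantile normalization of the log2 total gene signal of 718 features gave the deposited values to within 3.24e-06 and tied the older miRNA names of the table to those of the scanner files.

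A mean for each of the 3 groups was fitted over all 7 arrays with limma 3.58.1 in R 4.3.3, with Benjamini-Hochberg adjustment over 252 miRNAs at 0.05. Python 3.11.15 (pandas 2.3.3, numpy 2.4.6, matplotlib 3.10.9) served for reading the files and for plots. The members, the list of EZH2 repressors and the tests were chosen with earlier results of these data known, and the search of 3′ UTRs was added later. The miRNAs named are the members and miR-144, any of the list past the threshold, and for each member the 5 table miRNAs with the highest Pearson correlation. No miRNA of the list in the table passed, and those named with values were chosen after these were seen. Alternatives tried were no normalization, scaling to the 75th percentile, quantile normalization of the 252 miRNAs alone, all miRNAs detected on at least 1 array in place of all 7 (312 tested, floor 1), a replicate block, slide as a term, trend and robust moderation, a threshold of 0.1, and each array left out.

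Tested on 20 simulated sets of 252 miRNAs, 60 of them changed by a log2 of 1, the fit found 80.6% in secondary against control cells with 4.07% of calls false, and 80.2% with 5.22% false against Rb-depleted primary cells. The simulated noise was independent for each miRNA, with no effect of slide or array. These rates check the fit and do not describe the real calls. Loci and 3′ UTRs came from the GENCODE annotation of NCBIM37 and miRNA sequences from RefSeq, whose hairpins equal the NCBIM37 genome at both loci. The replicate numbers are not tied to a shared day or culture, so arrays with the same number were not treated as pairs. The deviations of arrays with the same number correlated between -0.14 and 0.13. In a group of 2 arrays the deviations mirror each other, so these correlations are not separate values and cannot decide on pairing. A replicate block was run as an alternative and lowered the calls over all miRNAs. The number of arrays limits the precision.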

Additional observations from a re-analysis of the deposited data

Results flagged for a closer look

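On the deposited scale the means of the 2 kinds of Rb-depleted cells lay on opposite sides of the control mean in both members. All arrays of Rb-depleted primary cells lay below the mean of the control arrays, and all arrays of secondary cells lay above it. Secondary exceeded Rb-depleted primary cells by 1.04 on the log2 scale for miR-101a and by 0.457 for miR-101b. The difference was not tested, because the pair was picked with these arrays in view. The share of all 252 miRNAs with this pattern was not counted. Rb-depleted primary arrays all below control arrays were found in 26.6% of them, and secondary arrays all above control arrays in 29.8%. These shares are for a stricter rule, beyond every control array rather than beyond their mean, so they do not give the share of this pattern. Nothing is read from its presence in both members. For miR-101a the part below control cells, -0.11, was smaller than its standard error of 0.20. Its Rb-depleted primary replicate 2 differed from the control mean by only -0.0010 and lay above control primary replicate 1. For miR-101b the part below control cells was -0.15 with a standard error of 0.13. Without normalization miR-101b of secondary cells was below control cells too, with a log2 difference of -0.15.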

How the results depend on the processing

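The difference of miR-101a and miR-101b between secondary and Rb-depleted primary cells kept its direction under every alternative run. Leaving out 1 array at a time gave 0.94 to 1.20 for miR-101a and 0.41 to 0.56 for miR-101b, and against control cells 0.85 to 1.09 and 0.26 to 0.41. Between Rb-depleted primary and control cells it gave -0.21 (without Rb-depleted primary replicate 2) to -0.0010 (without Rb-depleted primary replicate 1) for miR-101a and -0.19 to -0.11 for miR-101b. Without normalization the 3 differences were -0.51, 0.41 and 0.92 for miR-101a and -0.45, -0.15 and 0.30 for miR-101b, in the order primary against control, secondary against control and secondary against Rb-depleted primary cells. In all but the 0.92 they moved by more than the spread between replicates, and that of miR-101b over control cells changed sign. Scaling to the 75th percentile gave -0.27, 0.86 and 1.14 for miR-101a and -0.21, 0.30 and 0.52 for miR-101b, with secondary and control arrays of miR-101b overlapping and Rb-depleted primary arrays of miR-101a all below control arrays. The within-array difference between Rb-depleted primary and control cells was 0.042 as deposited and -0.060 with scaling or without normalization. Leaving out 1 array gave -0.03 to 0.12 for it, 0.55 to 0.70 in secondary against control cells and 0.52 to 0.65 against Rb-depleted primary cells. With a replicate block the secondary differences were 0.86 and 0.97 for miR-101a and 0.26 and 0.41 for miR-101b. The block left 0 of 12 EZH2 repressors called and brought the calls over all 252 miRNAs from 4, 57 and 51 to 0, 4 and 0, and slide as a term to 0, 6 and 0. Leaving out 1 array gave 0 to 22, 1 to 74 and 2 to 66. Among the EZH2 repressors the calls were 1, 1 and 1 of 13 with miRNAs detected on any array kept (7, 53 and 39 of 312 over all), each time miR-138-5p, which entered through the primary arrays and has a fixed floor value in secondary cells, so these calls support nothing. They were 0, 2 and 1 at a threshold of 0.1 (8, 72 and 93 of 252 over all) and 0 in the other alternatives, each array left out included. Slide as a term for the within-array difference was added after the data were seen and gave 0.69 and 0.65.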
